A study of Mus musculus with 2 samples.

Results

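The genes for the proteins of the cytosolic ribosome were followed in maps of DNase-accessible chromatin from mouse hippocampus. Members were taken from GENCODE M21 as protein-coding genes whose symbols follow the Rpl, Rps, Rplp or Rpsa pattern, without pseudogenes and without the ribosomal S6 kinases. This gave 83 of 21938 protein-coding genes on the assembled chromosomes, of which 48 encode large subunit proteins, 32 small subunit proteins and 3 proteins of the P stalk. The rule used the symbols and no measured value, though it was set with earlier results of these data known. Both libraries came from hippocampus of female B6CASTF1/J mice, a cross of 2 inbred strains, aged 8 to 10 months. The tissue type is labelled as layer of hippocampus, and the labels record no genetic alteration and no treatment. A pool of 2 biosamples went into each library, and both pools carry the same donor identifier. The libraries, numbered replicate 1 and replicate 2, form 1 group, so there was no contrast and no test between groups. The labels do not say that the pools came from separate animals, and spreads between the libraries may be partly technical.

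In DNase-seq, the nuclease DNase I cuts DNA where it is not wrapped in nucleosomes, and a peak is a stretch called for its many cuts. A footprint is a short stretch within such a site that is cut less than its surroundings, as bound proteins can leave. The labels name a tissue and no single cell type, so fewer cells with an open site and less cutting per cell cannot be told apart. Replicate 1 had 98902 peaks and 244447 footprints, and replicate 2 had 130199 peaks and 251726 footprints. As a tissue check, the promoters of 6 of 6 hippocampal neuron markers and 4 of 4 glial markers were open in both libraries. Those of 0 of 4 markers of liver, skeletal muscle, red cells and T cells were open, beside 59.2% of all protein-coding genes. The median percentile among open genes by mean signal was 53.1 for the neuron markers and 51.46 for the glial markers, near the middle. No markers of other brain regions were read, so this check does not separate hippocampus from other brain tissue. Read depths are not given in the files. The deposited peak signal came in whole multiples of a fixed step, 0.00606 in replicate 1 and 0.00795 in replicate 2, so the highest promoter peaks of the members held 171 to 1714 steps and 156 to 1301 steps.

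Ribosomes consist of a small subunit, which decodes the messenger RNA, and a large subunit, which joins the amino acids. Each holds ribosomal RNA and a fixed set of proteins, nearly all present as 1 copy, and the P stalk on the large subunit recruits translation factors. Messenger RNAs for these proteins usually begin with a 5′ terminal oligopyrimidine tract, a run of C and T through which their translation responds to growth signals. Neurons need ribosomes in the cell body and in dendrites, where proteins are made near synapses. The mouse genome also holds many retrocopies of these genes, which arose from messenger RNA and lack the parent promoter.

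The promoter sequences around the start sites show what the libraries read. The stretches below, from the mm10 reference (GRCm38), run from 90 bases upstream of the main transcript start to 10 bases downstream, 5′ to 3′ on the strand of the gene. They belong to 6 of the 8 members with the highest mean signal, and capitals mark the bases inside a footprint of both libraries.
Rplp0 (chr5:115559377-115559477, plus strand): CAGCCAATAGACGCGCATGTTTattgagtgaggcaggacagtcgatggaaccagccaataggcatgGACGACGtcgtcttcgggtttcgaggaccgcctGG
Rpl13a (chr7:45128751-45128851, minus strand): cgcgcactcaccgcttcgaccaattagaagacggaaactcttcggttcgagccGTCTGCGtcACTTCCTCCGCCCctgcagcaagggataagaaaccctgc
Rpl15 (chr14:18271057-18271157, minus strand): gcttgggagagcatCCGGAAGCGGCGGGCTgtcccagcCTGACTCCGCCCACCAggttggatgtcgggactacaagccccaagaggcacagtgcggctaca
Rps12 (chr10:23787265-23787365, minus strand): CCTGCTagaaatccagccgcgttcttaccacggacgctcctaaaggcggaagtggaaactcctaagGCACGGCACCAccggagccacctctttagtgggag
Rpl7a (chr2:26910674-26910774, plus strand): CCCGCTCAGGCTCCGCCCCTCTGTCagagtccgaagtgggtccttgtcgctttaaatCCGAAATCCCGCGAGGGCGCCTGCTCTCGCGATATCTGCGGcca
Rps19 (chr7:24884281-24884381, plus strand): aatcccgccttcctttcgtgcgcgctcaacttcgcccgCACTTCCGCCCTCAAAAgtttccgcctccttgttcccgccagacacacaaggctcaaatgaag

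The capitals fall at different distances from the start in these 6 promoters. In Rpl15, which codes for a large subunit protein, a match to the ETS consensus CCGGAAG at offsets -76 to -70 lay entirely in capitals, as did GGGCGG, the Sp/KLF consensus, on the opposite strand at -46 to -41. Rpl13a, Rpl7a and Rps19 each had a GGGCGG match on the opposite strand with all 6 bases inside footprints of both libraries, starting at -21, -78 and -47. Each also had another such match upstream of the stretch shown, starting at -173, -131 and -139. None of these touched a footprint in both libraries. In Rplp0 a CCAAT box at -87 to -83 was inside footprints of both libraries, while a second one at -36 to -32 was inside a footprint of replicate 1 and none of replicate 2.

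A promoter was counted as open when a peak of the larger deposited list touched its window, 500 bp to each side of the annotated transcript starts, in both libraries. Of the 83 members, 80 were open (96.4%, Wilson 95% interval 89.9 to 98.8%, for counting error only), beside 59.2% of all protein-coding genes. The stricter, smaller peak list also gave 80 members, beside 53.3% of all genes. Every small subunit gene (32 of 32) and P stalk gene (3 of 3) was open, and 45 of 48 large subunit genes were. The 3 closed promoters were Rpl3l, a paralog of Rpl3 used in heart and skeletal muscle, and Rpl10l and Rpl39l, copies of Rpl10 and Rpl39 used mainly in testis. None of these 3 had a peak in both libraries even within 2000 bp, and each had 0 bases that the deposited base-level list gives a false discovery rate of accessibility below 0.001 within 500 bp of its main start in either library. Their promoters held 1 (Rpl3l), 11 (Rpl10l) and 16 (Rpl39l) CpG dinucleotides, against a median of 18 in open members (200 bp upstream to 50 bp downstream of the main start). Rpl3l starts 7757 bp from the start of Rps2, an open small subunit gene with a mean signal of 6.57.

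The other 3 paralogs were open. Rpl22l1, a paralog of Rpl22, had signals of 5.27 in replicate 1 and 5.36 in replicate 2, higher than Rpl22 itself at 4.57 and 4.60. Rpl7l1, a factor related to Rpl7, had 2.15 and 2.38. Rps27l, a paralog of Rps27, had 1.58 and 2.19, against 3.68 and 3.44 for Rps27. The paralogs thus covered closed promoters, low signals and, for Rpl22l1, rank 27 among the 80 open members. The paralog symbol Rps4l was not matched.

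The height of the promoter peak is given next as the deposited signal of the highest peak touching the promoter window. The median over the 80 open members was 4.09 in replicate 1 and 4.31 in replicate 2, which is 4.20 ± 0.158 (SD, n = 2). Over all 12982 open protein-coding genes the medians were 2.12 and 2.48. The median member stood at percentile 75.4 of open genes by mean signal, and members ranged from percentile 22.9 to 98.7. In the highest 10% of open promoters there were 18 of 80 members (22.5%, beside 10.0% of all open genes by construction). In the highest 25% there were 41 members (51.2%, beside 25%), and above the median of open genes 70 (87.5%, beside 50%). These are descriptions and no test was made. Members had a median of 6 annotated starts and all open genes 5. The widths of the highest peaks were the same in both sets, with medians of 260 bp in replicate 1 and 240 bp in replicate 2.

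**Figure D1:**
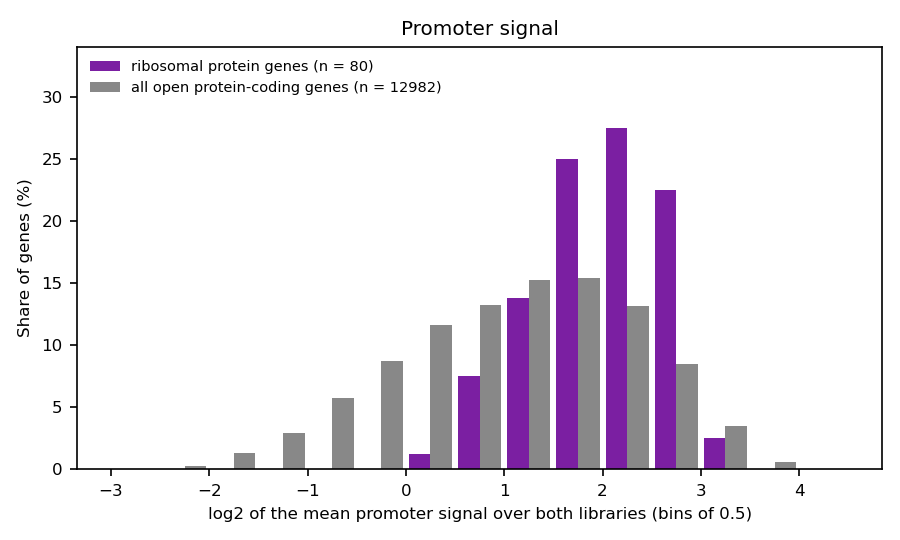
Share of genes (vertical axis, %) by log2 of the mean promoter signal over both libraries (horizontal axis, bins of 0.5), for the 80 open ribosomal protein genes and all 12982 open protein-coding genes. The ribosomal protein genes are shifted to higher signal, with a median of 4.11 on the linear scale against 2.30, and none reaches the lowest bins.

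The signal differed among the members. The highest mean was 8.85 times the lowest. Rplp0, which anchors the P stalk, led with 9.80 in replicate 1 and 10.3 in replicate 2 (10.1 ± 0.387, SD, n = 2). Rpl13a, a large subunit protein, followed with 10.4 and 9.04 (9.71 ± 0.95, SD, n = 2). These 2 overlapped each other and stood above the rest in both libraries. Rpl15 was next with 7.77 and 6.66.

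Among the small subunit genes, Rps12 had 6.77 in replicate 1 and 7.33 in replicate 2. Rps19, whose human counterpart is mutated in Diamond-Blackfan anemia, had 7.33 and 6.46, and Rps21 had 7.22 and 6.13. Of the large subunit genes, Rpl7a had 6.76 and 7.18, and Rpl27 had 7.02 and 6.19. From Rpl15 at rank 3 to Rpl27 at rank 10 the mean fell from 7.21 to 6.60, a gap of the size of the spread between libraries for the genes named here (SD 0.296 to 0.791), so their order is not resolved.

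At the low end, Rps4x, the X-linked small subunit gene, had 1.04 in replicate 1 and 1.24 in replicate 2. Rpl4, a large subunit gene, had 1.13 and 1.80. Rps10 had 1.51 and 1.78, and Rpl6 had 1.67 and 1.73. All of these were below the median of all open genes in both libraries. Rpl32 had 1.43 and 2.48, Rpl39 had 2.04 in both, and Rpl35a had 1.5 and 2.72. The paralogs Rps27l and Rpl7l1 were also among the 10 lowest.

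**Figure D2:**
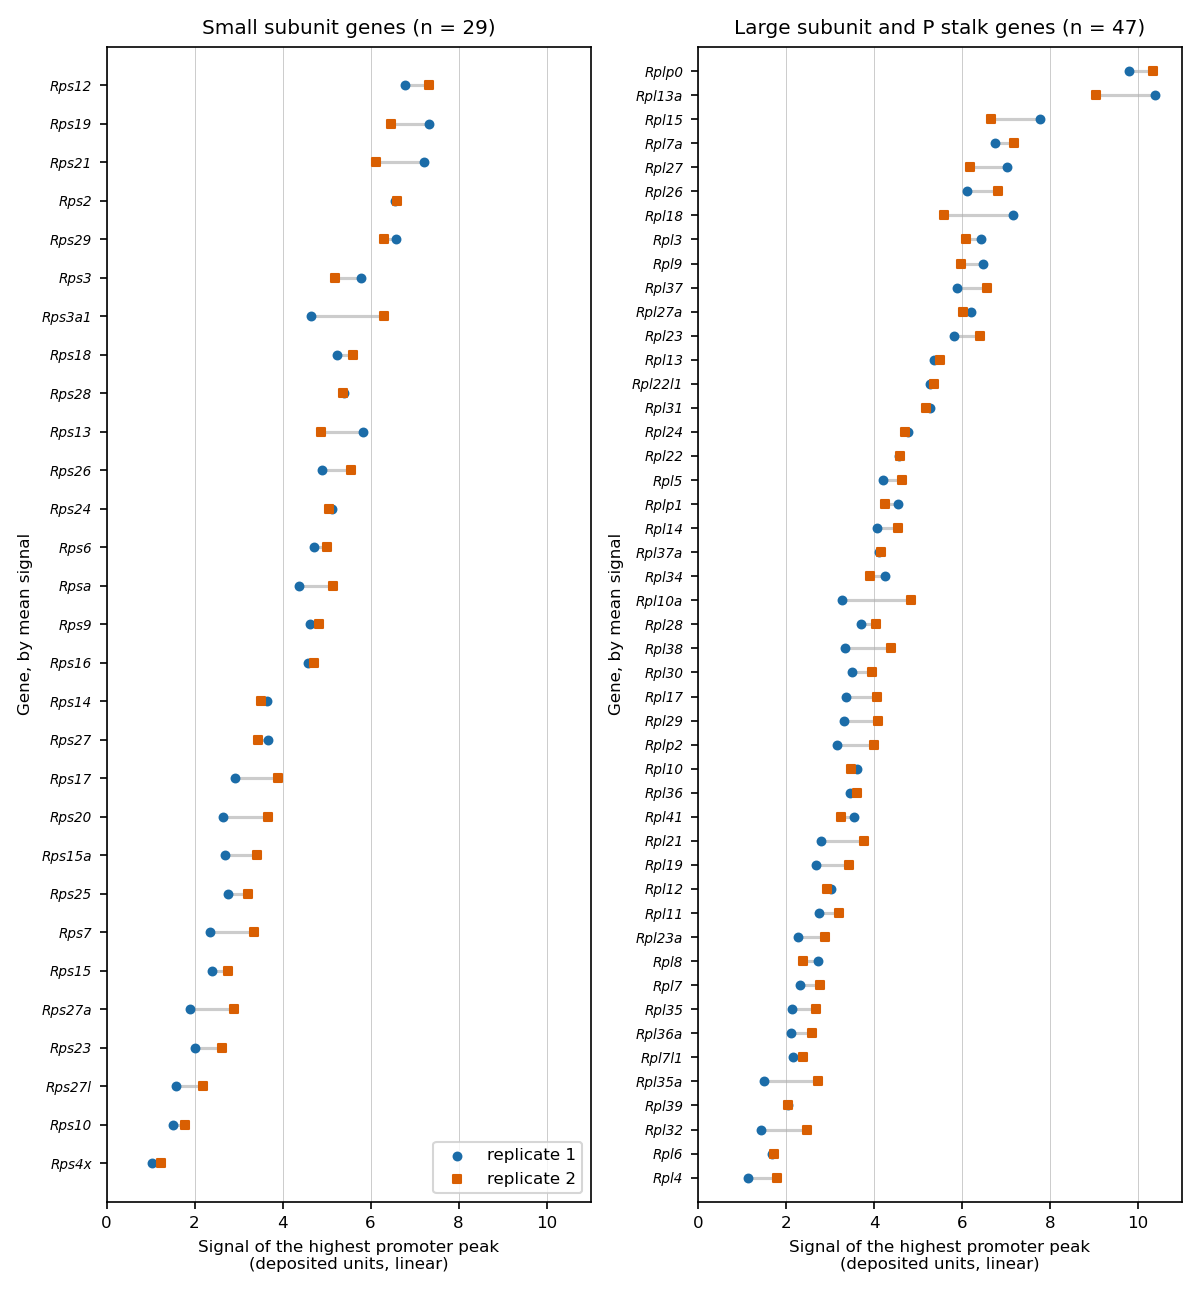
Signal of the highest promoter peak (horizontal axis, deposited units) for 76 of the 80 open ribosomal protein genes, ordered by mean, with 1 point for each library. Rplp0 and Rpl13a stand above the others at 9.04 to 10.4, and Rps4x is lowest at 1.04 and 1.24.

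By role, the median mean signal was 4.75 for the 32 small subunit genes (median percentile 81.2), 3.88 for the 45 open large subunit genes (73.0) and 4.40 for the P stalk. The other P stalk genes, which code for the dimers carried by Rplp0, were Rplp1 with 4.54 and 4.25, and Rplp2 with 3.15 and 4.01. Without paralogs the subunit medians were 4.77 and 3.88. Rps27a, which codes for a fusion of ubiquitin with a small subunit protein, had 1.90 and 2.89. Ribosomal protein genes under other symbols include Fau, which codes for a fusion of a ubiquitin-like protein with a small subunit protein, with 5.93 and 5.42, Rpl36al with 4.58 and 5.83, and Rack1, a scaffold on the small subunit, with 2.33 and 2.64. These were open in both libraries.

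On the X chromosome lie 4 members. Their signals were 3.61 and 3.48 for Rpl10, 2.11 and 2.59 for Rpl36a, 2.04 in both libraries for Rpl39, and the values above for Rps4x. Their median mean signal was 2.20, against 4.35 for the 76 open members on autosomes. Over all open genes the X chromosome also had lower medians, 1.35 against 2.36 on autosomes. Both pools are female, and whether inactivation of 1 X chromosome in each cell has a part in these values was not tested.

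The libraries ranked the members alike (Spearman rho across genes 0.954, over 80 genes that are not independent replicates, as a description). All 80 open members were within 2-fold between libraries and 76 within 1.5-fold. Replicate 2 had the higher signal in 53 members and replicate 1 in 27. Over all open genes the median log2 ratio of replicate 2 to replicate 1 was 0.14, and 46 members were below that median and 34 above it. Among the 5 largest departures from it were upward ones in Rpl35a (log2 ratio 0.86), Rpl32 (0.79) and Rpl4 (0.67), 3 low promoters, and a downward one in Rpl18 (-0.35; 7.16 and 5.60), a high one. By signal, the median ratio over all open genes was 0.19 in quintile 1, the lowest, 0.28 in quintile 2, 0.23 in quintile 3, 0.13 in quintile 4 and -0.08 in quintile 5. For members it was 0.25 in quintile 2 (4 genes), 0.33 in quintile 3 (15), 0.17 in quintile 4 (26) and -0.01 in quintile 5 (35), with 0 members in quintile 1.

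For Rpl18 the values came from different peaks. In replicate 1 the highest was chr7:45715201-45715460 with 7.16, which replicate 2 showed at 5.37. In replicate 2 the highest was chr7:45717901-45718140 with 5.60, which replicate 1 showed at 6.27. Rpl7 was the other member whose highest peaks did not overlap, and in 78 of 80 members (97.5%, beside 94.9% of all open genes) they did.

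The peaks sat close to the annotated starts. The midpoint of the highest peak had a median offset of -18.5 bp from the main start in replicate 1 and -20 bp in replicate 2, negative being upstream, where all open genes had -40.5 bp in both. It was upstream in both libraries for 47 members and downstream in both for 23, and within 100 bp in both for 55. The highest peak covered the main start in both libraries in 61 of 80 members (76.2%, beside 54.7% of all open genes). Among the other 19, the peak lay inside the gene for Rps25, 361.5 and 471.5 bp downstream by its midpoint, for Rpl35, 433.5 and 463.5 bp downstream, and for Rps10, 254.5 bp downstream in both. For Rpl4 its midpoint was upstream, at -364.5 and -294.5 bp, and the start of Zwilch on the opposite strand is 271 bp from that of Rpl4. Within 500 bp of the main start, members had a median of 570.5 and 651 bases below a false discovery rate of 0.001, against 458 and 552 for all open genes.

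Footprints were then counted in the core promoter, from 100 bp upstream to 50 bp downstream of the main start. At least 1 footprint of each library touched it in 70 of 80 members (87.5%, beside 71.4% of all open genes). Where the highest peak covered the main start, the shares were 93.4% (57 of 61) and 95%, so within that subset members were near the background. By position, 66.2% of members had a footprint of both libraries touching offsets -100 to -51, against 48.4% of open genes, and 46.2% against 27.3% at offsets 0 to 20. In the subset with the start inside the peak these pairs were 72.1% and 65.8%, and 54.1% and 41.0%. Members also had higher peaks than all open genes (median mean signal 4.11 against 2.30). Footprint shares at equal signal were not taken. Base by base, the share of members inside a footprint of both libraries was highest at offset -52, with 26 members (32.5%), and that of all open genes at -18, with 16.7%. For members it was 27.5% (22 genes) at the neighbouring base -53 and also at -22, -16 and -11. The place of the member maximum is thus not resolved.

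**Figure D3:**
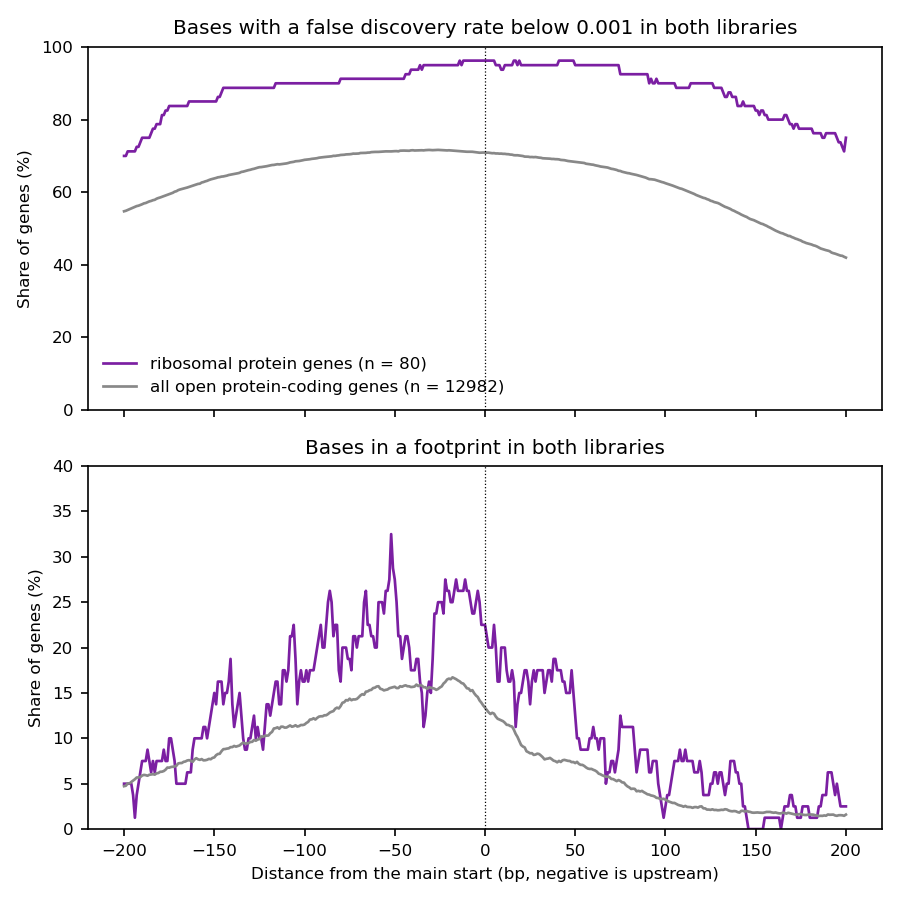
Share of genes (vertical axes, %) with a base below a false discovery rate of 0.001 in both libraries and with a base inside a footprint of both libraries, by distance from the main start (horizontal axis, bp, negative is upstream), for 80 open ribosomal protein genes and all 12982 open protein-coding genes. The member line lies above the other around the start in the accessibility panel. At offsets -20 to -1, 95.8% of member bases pass against 71.2%, and at offsets -50 to -21 93.8% pass against 71.5%. Where the highest peak covers the main start (61 members and 7103 open genes), the latter shares are 99.2% and 93.4%. The gap is thus narrower in that subset, which is not drawn. The footprint panel peaks at -52 for members.

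The start sites themselves were read for the pyrimidine tract. The stretches below run from 19 bases upstream of the main start to 10 bases downstream on the strand of the gene, in mm10, so the 20th letter is the annotated start. They were picked because their highest peak covers the start and the whole run lies within the stretch, and capitals mark the run.
Rpl22 (chr4:152325848-152325877, plus strand): agtgcgCCCCCCTCCCTTTCTgcctcctct
Rpl31 (chr1:39367823-39367852, plus strand): cctcgccacaCCTCTTCCTCCTCgcctccc
Rpl37a (chr1:72711271-72711300, plus strand): atgcgcattgcgTCCCTTCCTCTTCggact
Rpl29 (chr9:106429435-106429464, plus strand): cttggaaCCTTTTTTCTCCgccagcagtga
Rps16 (chr7:28350633-28350662, plus strand): attcacacgTCCCCTCTCaggcttcgacgt

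In Rpl22 the run was 15 bases, in Rpl31 and Rpl37a 13, in Rpl29 12, and in Rps16 9. By the annotated starts, the runs of Rpl29 (offsets -12 to -1) and Rps16 (-10 to -2) lay wholly upstream, outside the transcript. That of Rpl22 (-13 to 1) lay mostly upstream. The longest among the members was the 19-base run of Rps24, followed by 17 bases in Rpl32. A run of at least 6 consecutive C or T touching 5 bp on either side of the main start was present in 29 of 80 open members (36.2%, Wilson 95% interval 26.6 to 47.2%, beside 19.3% of all open genes). Runs of at least 8 were present in 22 (27.5%, beside 9.21%). With the start inside the peak it was 24 of 61 (39.3%, beside 18.8%). By role, 14 of 32 small subunit genes, 14 of 45 open large subunit genes and 1 of 3 P stalk genes had a run of at least 6.

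This count depends on where the start is annotated, and it includes runs that end upstream of it, such as those of Rpl29 and Rps16. Within 50 bp of the main start, 55 of 80 members held a run of at least 8, beside 36.2% of all open genes. For the 60 open members in the RefSeq promoter table, 28 had a run of at least 6 at the nearest RefSeq start (20.2% of open genes in that table), and 21 of the 60 had a RefSeq start within 10 bp of the main start used here. Rplp0 and Rpl13a, the 2 members with the highest signal, had runs of 4.

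**Figure D4:**
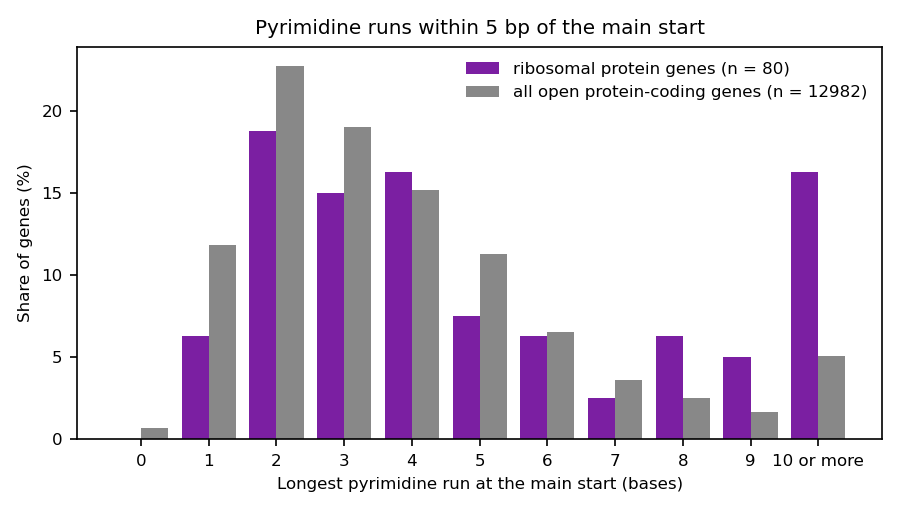
Share of genes (vertical axis, %) by the longest run of C or T touching 5 bp on either side of the main start (horizontal axis, bases), for 80 open ribosomal protein genes and all 12982 open protein-coding genes. Runs of 8 bases or more make up 27.5% of members and 9.21% of all open genes.

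Consensus matches were counted from 200 bp upstream to 50 bp downstream of the main start, on both strands except for the TATA box, which was read on the strand of the gene. A match describes letters in the reference and not a bound factor. The most frequent among members was GGGCGG, the Sp/KLF consensus, in 41 of 80 (51.2%, beside 61.1% of all open promoters). The GC content of the members was lower, with a median of 57.6% against 62.2%. CCGGAAG, the ETS consensus, was in 25 (31.2%, beside 16.1%), and with the start inside the peak in 31.1% beside 21.3%, where the interval of 20.9 to 43.6% includes the background. CCAAT was in 25 (31.2%, beside 35.3%), CACGTG, the E box, in 8 (10.0%, beside 8.77%), and the NRF1 consensus in 6 (7.5%, beside 9.53%), all near the background. AANATGGC, the YY1 consensus, was in 10 (12.5%, beside 7.58%), and TGACGTCA, the cyclic AMP response element, in 5 (6.25%, beside 3.37%), with intervals that include the background. With the start inside the peak, the shares were 13.1% beside 9.31% for YY1, 8.2% beside 4.84% for the cyclic AMP element, 50.8% beside 64.8% for Sp/KLF, 8.2% beside 10.3% for the E box and 34.4% beside 39.8% for CCAAT.

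The consensus TATAAA was in 6 members (7.5%, beside 3.52%), with an interval of 3.48 to 15.4% that includes the background. Of these matches, 5 lay downstream of the main start: at offset 3 in Rpl36a, 17 in Rplp0 and Rps2, 37 in Rps28 and 44 in Rpl22l1. The match upstream was in Rpl30, at -51. The consensus bound by ZNF143 and THAP11 was in 6 members (7.5%, beside 2.16%), which were Rpl23a, Rpl41, Rpl7, Rplp2, Rps26 and Rps27a. With the start inside the peak it was in 2 of 61 (3.28%, beside 3.11%), near the background.

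The 10-base palindrome, whose core is CTCGCGAG flanked by T and A, was in 6 members (7.5%, Wilson 95% interval 3.48 to 15.4%, beside 0.87%), and with the start inside the peak in 5 of 61 (8.2%, beside 1.34%). The 8-base core alone was in 8 (10.0%, beside 1.66%). They include Rpl10a, Rpl17, Rpl26, Rps6 and Rps28. Of these, 4 are shown, since each match touched a footprint in both libraries. Each stretch is from mm10 on the strand of the gene, with the palindrome in capitals and 10 bases on either side.
Rpl26 (chr11:68901530-68901559, plus strand): gctccgagacTCTCGCGAGAtctcgcggca
Rpl10a (chr17:28328524-28328553, plus strand): aacgggcaacTCTCGCGAGAacgcgggctc
Rps28 (chr17:33824544-33824573, minus strand): ccgcgtgcggTCTCGCGAGAgcgaaagtga
Rps6 (chr4:86857399-86857428, minus strand): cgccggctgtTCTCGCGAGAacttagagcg

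The flanks differ in sequence, and the palindrome started at offset -43 in Rpl26, -34 in Rpl10a, -1 in Rps28 and -6 in Rps6. All 10 bases were inside footprints of both libraries in Rpl26 and Rpl17. In Rpl10a 5 bases were in replicate 1 and 7 in replicate 2, in Rps28 10 and 4, and in Rps6 8 and 10. The signals of these genes were 6.11 and 6.81 for Rpl26, 3.28 and 4.83 for Rpl10a, 5.39 and 5.37 for Rps28, 4.71 and 5.01 for Rps6, and 3.37 and 4.08 for Rpl17. They spread from the middle to the upper range of members.

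**Figure D5:**
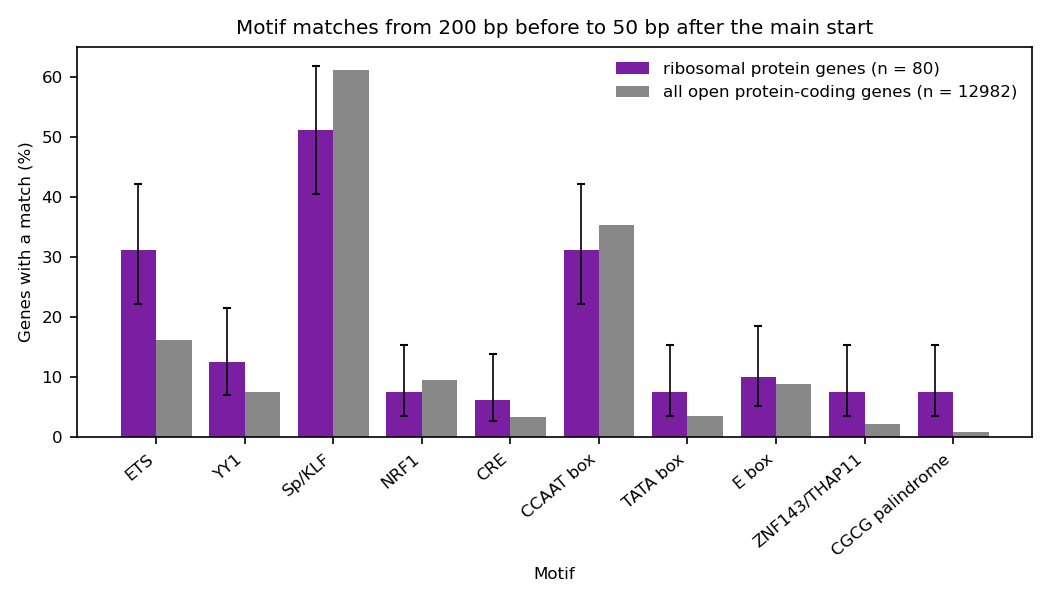
Share of genes (vertical axis, %) with a match to each motif from 200 bp upstream to 50 bp downstream of the main start (horizontal axis, motif names), for 80 open ribosomal protein genes and all 12982 open protein-coding genes, with Wilson 95% intervals on the members. ETS (31.2% against 16.1%), ZNF143/THAP11 (7.5% against 2.16%) and the palindrome (7.5% against 0.87%) have member intervals above the share of all open genes in this set of 80 genes, and Sp/KLF reaches 51.2% against 61.1%.

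For each match the overlap with footprints of both libraries was read, with a minimum of 1 bp. The palindrome matches of members touched a footprint in 6 of 6 cases (interval 61.0 to 100%), beside 86 of 112 (76.8%) in all open promoters. NRF1 matches did in 6 of 7 (85.7%, beside 76.7%) and TGACGTCA in 4 of 5 (80%, beside 82.8%). GGGCGG matches did in 37 of 64 (57.8%, interval 45.6 to 69.1%, beside 39.7%), ETS in 11 of 32 (34.4%, beside 30.1%), YY1 in 5 of 10 (50%, beside 27.5%), and CCAAT in 9 of 33 (27.3%, beside 18.2%). TATAAA did in 4 of 6 (66.7%, interval 30.0 to 90.3%, beside 13.3%). Those 4 matches lay downstream of the main start, and the upstream one in Rpl30 touched no footprint. E boxes did in 2 of 8 (25%, beside 27.2%), and ZNF143/THAP11 in 3 of 6 (50%, beside 39.6%). Matches in 1 promoter share their peak. Members and all open genes also differ in how often the highest peak covers the main start (76.2% against 54.7%). They differ in peak height as well (median mean signal 4.11 against 2.30). The footprint shares of matches were not taken within the subset with the start inside the peak, nor at equal signal.

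The gene bodies carry other RNAs. Small nucleolar RNA genes, which guide the modification of ribosomal RNA, lay inside 30 of 83 members on the same strand (36.1%, beside 1.18% of all protein-coding genes), 58 in all. Rpl4 held 5 and Rpl13a held 4, namely Snord32a, Snord33, Snord34 and Snord35a. Hosts had a median mean signal of 4.71, and the 47 members that host none, without paralogs, had 4.06. Hosts include both Rpl13a, near the top, and Rpl4, near the bottom.

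A start on the opposite strand within 1000 bp, which can share the peak, was found for 24 of 80 open members (30.0%, beside 30.6%), and for 17 (21.2%, beside 18.4%) it belonged to a protein-coding gene. These shares are near the background. Examples are Nkiras1 at 69 bp from Rpl15, Med22 at 87 bp from Rpl7a, Lias at 53 bp from Rpl9 and Ndufa7 at 10 bp from Rps28. With paralogs left out of both sets, the median mean signal was 4.08 for the 23 members with such a start and 4.22 for the 54 without one. With the paralog Rpl22l1 counted, the median of the former was 4.59, so the order of the sets turns on 1 gene.

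Few retrocopies were open. The 294 counted here were pseudogenes with Rpl or Rps symbols that contain -ps, so any copies under other symbols were left out. Of the 294, 5 had a peak in both libraries at the start (1.70%, Wilson 95% interval 0.729 to 3.92%, beside 1.95% of all processed pseudogenes), a share near the background. They were Rpl29-ps2, with 3.84 and 3.70, Rps27a-ps1 with 1.04 and 1.34, Rpl31-ps20 with 1.22 and 0.986, Rps13-ps5 with 0.618 and 1.18, and Rps19-ps10 with 0.491 and 1.12. Rpl29-ps2 was as high as Rpl29, which had 3.32 and 4.10. Reads from near-identical copies may be placed at either, and how the copies were treated was not given in the sources used here.

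Other genes of translation give the levels around these. Over all protein-coding genes 59.2% were open, and 19.3% of open genes had a pyrimidine run of at least 6. Of 14 translation factors and other genes with oligopyrimidine messenger RNAs, 14 were open, with a median mean signal of 4.93 (median percentile 82.8). Such a run was present in 7 of them, a count partly built in, since the list was drawn up for such messenger RNAs. Eef1g, a subunit of an elongation factor, had 9.84 and 7.53, and Eif3h, a subunit of an initiation factor, had 2.51 and 3.47. Of 17 ribosome assembly genes, 17 were open, with a median of 3.67 (percentile 70.7), led by Rrp9, a protein of the small nucleolar particles, with 12 and 9.22. The lowest was Pes1, an assembly factor of the large subunit, with 1.55 and 1.99, and 1 of the 17 had a pyrimidine run. The 78 mitochondrial ribosomal protein genes, whose products serve the separate ribosome of mitochondria, were all open, with a median of 2.73 (percentile 57.6) and a range of 0.885 to 10.0. Of these 78, 16 had a pyrimidine run. No difference between these lists was tested.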

How the data were processed

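DNase-seq was measured in 2 libraries of mouse hippocampus. Per the labels and the deposited notes, the authors made peaks, footprints and false discovery rates for each library by itself, from alignments to mm10. Aligner, callers and versions were not given in the sources used here. The signal deposited as peak height has no negative values and took whole multiples of a library's step in 100% of peaks, with a tolerance of 0.05 step. The meaning of a step was not given in the sources used here, so the signal served for description and ranking. False discovery rates deposited by base, treated as a p-value unit, cover intervals below 0.05. Every deposited footprint has the same p-value type cutoff, 0.01. The larger of the peak lists was the main one.

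Genes and starts came from GENCODE M21. A promoter spanned 500 bp on either side of any transcript start, and an overlap needed 1 bp. The main start was that of the principal transcript with the best support, then the longest, and otherwise the 5′ end of the gene. Offset 0 is the start, and negative offsets are upstream. Consensus matches and pyrimidine runs were read from the mm10 reference. Wilson 95% intervals cover counting error only. With 1 group, no test was made. Members, lists and alternatives were chosen with earlier results of these data known.

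Genes named with values were the 10 highest and 10 lowest open members, closed members, paralogs, the 5 members with the largest departure in log2 ratio between libraries, and the ribosomal proteins under other symbols. Of the 8 highest, 6 gave promoter sequences, and the motif most often in footprints by share gave up to 3. Some genes that this rule names are not reported here one by one, though counts and medians include them. Further genes named, the start sequences and the palindromes beyond 3 were chosen after their values were seen. The counting steps were tested on simulated data. Python 3.11.15, numpy 2.4.6, pandas 2.3.3, scipy 1.17.1, pyfaidx 0.9.0.4 and matplotlib 3.10.9 were used.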

Additional observations from a re-analysis of the deposited data

How the results depend on the processing

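The members' open count was 80 with the smaller peak list, with a 2000 bp window and with either library alone. It was 75 when only the gene record's first base served as start. Apart from the smaller list, the shares of all genes under these settings are not given here. Divided by the median of each library over shared peaks, the median member signal was 5.60 (5.97 and 5.22, against 3.10 and 3.0 for all open genes). The median percentile was 75.4 as reported, 72.7 with the smaller list, 77.2 with the 2000 bp window, 74.9 with that single start, and 76.2 to 76.4 with 1 library left out. The median peak midpoint, -19.25 bp over both libraries, was -5.75 bp when measured from it. The pyrimidine count of 29 was 55 for runs of at least 8 within 50 bp, an alternative chosen after seeing the data, as were the RefSeq starts, the subset with the start inside the peak and the palindrome core. With 500 bp upstream to 100 bp downstream, CCAAT was in 39 members, TATAAA in 13 and the E box in 14, from a longer sequence. The shares of all open genes in that longer sequence are not given here, so these counts have no background beside them. With all bases of a match required in footprints, the shares were 15.6% for ETS, 0% for YY1, 43.8% for Sp/KLF, 3.03% for CCAAT, 0% for ZNF143/THAP11 and 50% for the palindrome. With 1 library left out, YY1 ranged from 50 to 80% and TGACGTCA from 80 to 100%. Of 81 values under alternatives, 62 moved by less than the spread used and 19 by more. With the start inside the peak, the member share went from above to below that of all open genes for core footprints (87.5% beside 71.4%, then 93.4% beside 95%) and for the E box (10.0% beside 8.77%, then 8.2% beside 10.3%). No paired analysis was possible because both libraries belong to 1 group. The lowest member signals held 171 steps in replicate 1 and 156 in replicate 2. What a step stands for was not given, so their precision could not be judged from it. Placement of reads from the 2 strains of the cross was not tested.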
